A study of Mus musculus with 8 samples.

Results

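The 5 actin genes Acta1, Actc1, Acta2, Actb and Actg1 were described in the quadriceps muscle of mice bearing a squamous carcinoma of the head and neck and of mice without one. They were found by their symbols, which matched 5 of the 53819 rows of the deposited count table, and all 5 were among the 14070 genes deep enough to be tested. The difference between tumor and control mice was known when they were chosen: they were selected on the difference between the groups in these same 8 libraries. Their levels are therefore given as a description, with no test.

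All 8 mice were wild-type C57BL/6J, 8 weeks of age when they were divided into groups. The tumor mice (n = 4) were injected under the skin of the nape with 500000 B0092 carcinoma cells in 200 µL of phosphate-buffered saline (PBS), and the control mice (n = 4) with PBS. Quadriceps was frozen on day 36, when tumor mice had lost about 10% of their starting weight, and each library was made from 1 mouse. All tumors came from 1 cell line and were placed away from the muscle sampled. Libraries held 28436205 to 36139462 counts. Skeletal muscle fibre markers summed to between 122229 and 220421 counts per 1000000 (CPM) in every library. Of 10 squamous carcinoma markers, 7 (Krt5, Krt14, Krt6a, Krt17, Dsg3, Sprr1b and Krt13) had 0 counts in all 8 libraries, while the list summed to 7.38 to 10.6 CPM in controls and 17.4 to 38.3 CPM in tumor mice. Most of that sum was Trp63, which rose 3.01-fold, from 8.17 ± 1.43 to 24.6 ± 8.86 CPM (mean ± SD, n = 4; edgeR adjusted p = 0.00484). Whether this list's rise bears on the actin levels was not tested. Of 10 cardiac identity markers, Nppa, Myl7 and Nkx2-5 had 0 counts throughout, and the list summed to at most 6.96 CPM.

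Actin is the protein of the thin filament that myosin pulls on, and in every cell it also builds the cytoskeleton. Mammals encode it in a small family of near-identical genes. Acta1 is the alpha actin of adult skeletal muscle. Actc1 is the alpha actin of the heart, which skeletal muscle fibres also make in the embryo and largely replace by Acta1 after birth. Acta2 belongs to vascular smooth muscle and to some pericytes and myofibroblasts, and Actb and Actg1 are the cytoplasmic actins of all cells. Actin genes are classic targets of serum response factor (SRF), which binds the CArG box in their promoters. Its coactivators of the MRTF family are held in the cytoplasm by unpolymerised actin, so that the state of the filaments feeds back on the genes.

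Because all 5 genes were lower in tumor mice, the 250 bases before the annotated start are shown for the 4 with a RefSeq window on build GRCm38.p6, each 5′ to 3′ on the gene's strand. Capitals mark CArG boxes, which are runs of 10 letters with CC at one end, GG at the other and 6 letters of A or T between, and the same runs with 1 letter different.
Acta1 (chr8:123894776-123895025, minus strand): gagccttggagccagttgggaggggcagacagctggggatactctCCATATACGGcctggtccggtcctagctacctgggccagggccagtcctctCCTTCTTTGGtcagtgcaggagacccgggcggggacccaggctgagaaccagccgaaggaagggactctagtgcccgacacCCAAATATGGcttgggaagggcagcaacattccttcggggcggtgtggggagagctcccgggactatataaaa
Actc1 (chr2:114052876-114053125, minus strand): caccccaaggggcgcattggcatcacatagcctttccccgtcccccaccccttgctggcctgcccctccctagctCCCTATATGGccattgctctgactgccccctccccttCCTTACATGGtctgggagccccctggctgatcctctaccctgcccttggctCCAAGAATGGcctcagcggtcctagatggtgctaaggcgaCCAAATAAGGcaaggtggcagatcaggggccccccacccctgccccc
Acta2 (chr19:34255374-34255623, minus strand): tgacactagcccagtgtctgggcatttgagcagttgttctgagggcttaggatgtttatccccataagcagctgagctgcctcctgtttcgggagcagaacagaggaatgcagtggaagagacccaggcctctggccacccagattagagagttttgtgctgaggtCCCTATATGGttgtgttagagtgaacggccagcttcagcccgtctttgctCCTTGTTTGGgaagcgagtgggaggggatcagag
Actg1 (chr11:120348496-120348745, minus strand): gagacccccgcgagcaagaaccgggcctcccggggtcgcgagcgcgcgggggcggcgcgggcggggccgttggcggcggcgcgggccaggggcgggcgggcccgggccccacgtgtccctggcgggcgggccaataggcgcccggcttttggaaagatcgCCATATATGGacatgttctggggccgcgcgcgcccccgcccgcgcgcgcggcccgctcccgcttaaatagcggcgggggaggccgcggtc
Acta1, Actc1 and Actg1 each held 1 exact CArG box, which was CCAAATATGG at positions -73 to -64 of Acta1, CCAAATAAGG at -47 to -38 of Actc1 and CCATATATGG at -90 to -81 of Actg1 (counted back from -1 just before the start). Acta2 held 2 runs with 1 letter different, CCCTATATGG and CCTTGTTTGG, and no exact one. An exact box was found in 1.47% of 32851 windows of the same length, from 27025 genes, and a run with 1 letter different in 17.5%. The general E-box (CANNTG with N any letter, on either strand) was found 2 times in Acta1, 3 in Acta2, 1 in Actg1 and 0 in Actc1. It was found in 66.2% of all windows. The MCAT element (CATTCC, on either strand) was found in Acta1 and Acta2 and in 12.6% of windows. TATAAA (on either strand) was found in Acta1, at -7 to -2, and in 12.4% of windows. All positions are distances from the annotated start, and where transcription begins was not tested. No match overlapped another. A match is a run of letters and not evidence of binding.

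**Figure D1:**
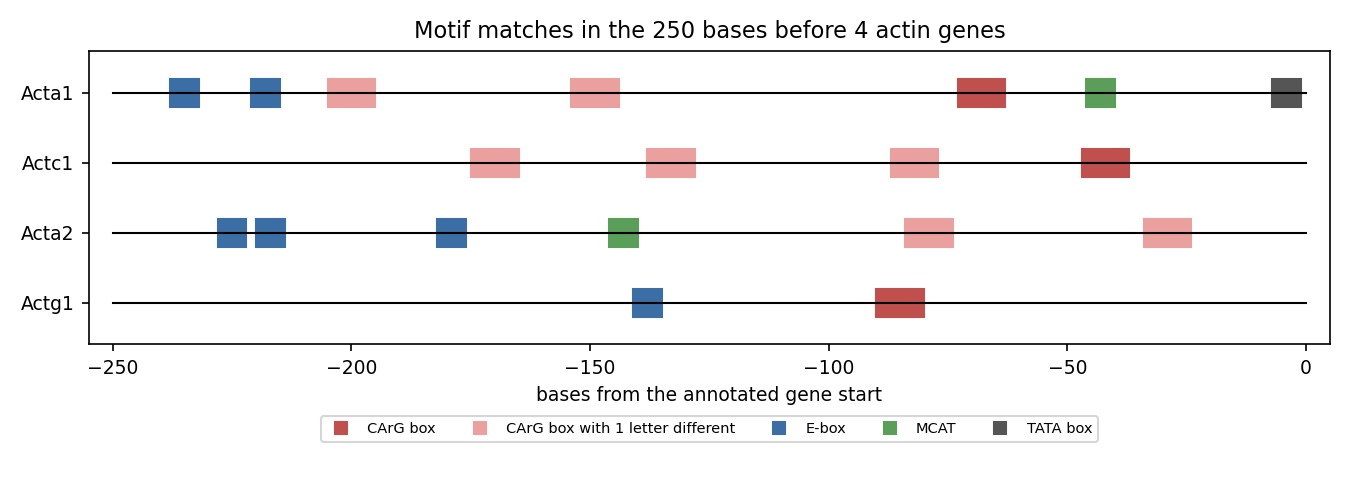
Positions of motif matches in the 250 bases before the annotated start of Acta1, Actc1, Acta2 and Actg1, with the distance from the start in bases on the horizontal axis and 1 box per match. Acta1, Actc1 and Actg1 carry an exact CArG box (red), while Acta2 carries only runs with 1 letter different (light red).

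In control muscle, Acta1 stood far above its relatives. Per kilobase of the longest annotated protein-coding transcript it lay at 17312 ± 2018 CPM (SD, n = 4), followed by Actb at 132 ± 19.2, Actc1 at 90.1 ± 68.7, Actg1 at 69.4 ± 8.46 and Acta2 at 8.93 ± 3.12 CPM per kilobase. Actc1 ran from 27.4 to 186 CPM per kilobase over the control mice, so its place beside Actb (114 to 158) and Actg1 (61.2 to 79.9) was within its own spread. In tumor muscle the order was Acta1 at 7355 ± 3478, Actb at 90.4 ± 14.3, Actg1 at 31.6 ± 2.14, Actc1 at 6.77 ± 6.23 and Acta2 at 3.75 ± 0.94 CPM per kilobase. There Actc1 (3.17 to 16.1) could not be separated from Acta2 (3.02 to 5.06), while Actg1 (28.5 to 33.1) lay above Actc1 in every mouse.

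All 5 actin genes were lower in tumor mice, with no overlap between the groups, where 11.5% of all genes tested were lower, 13.5% higher and 25.0% either way without overlap. The share over all genes is given for scale only, since this contrast was known when the genes were chosen. By the ratio of geometric means, Actc1 was 13.6-fold lower, Acta1 2.56-fold, Acta2 2.32-fold, Actg1 2.19-fold and Actb 1.46-fold. Of the genes tested, 15 had a lower log2 fold change than Actc1, which is 0.107% of them.

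**Figure D2:**
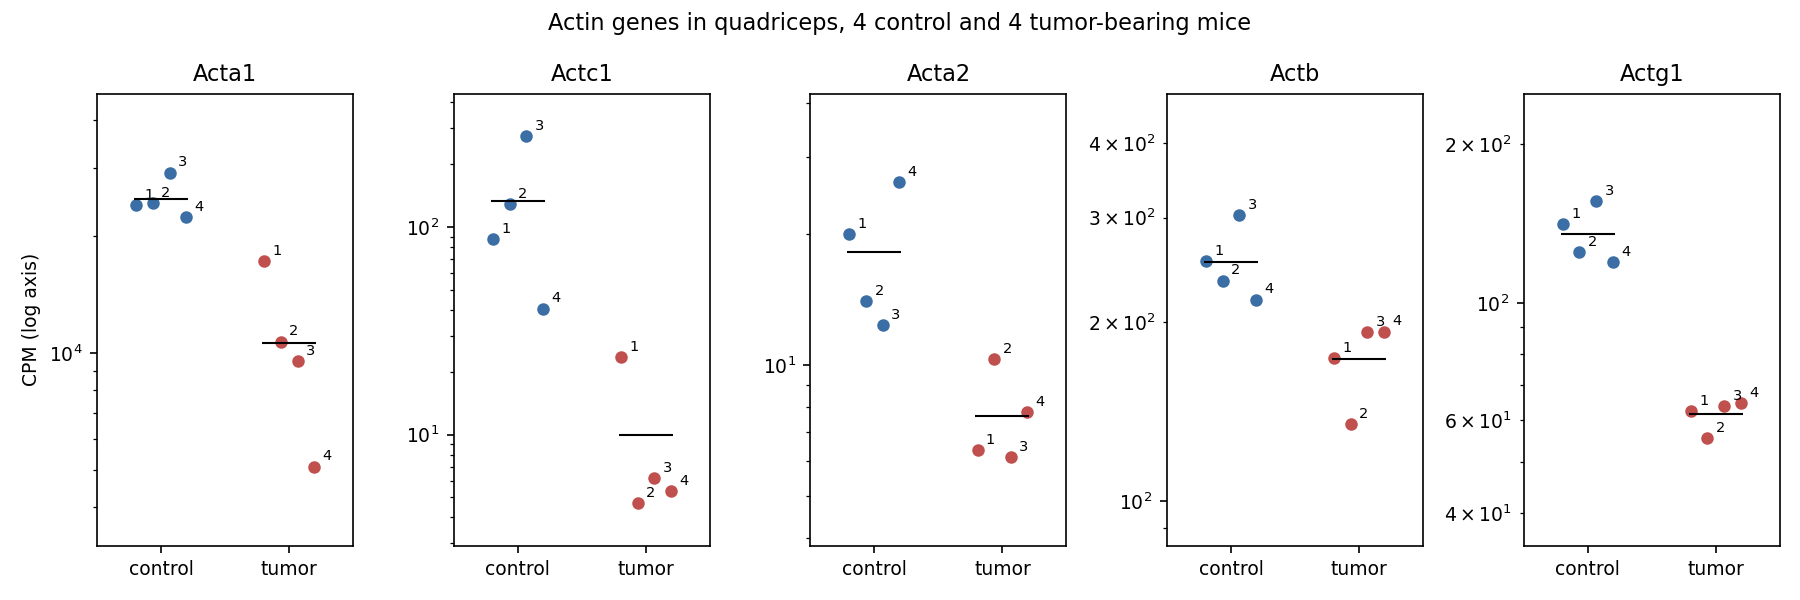
CPM of each actin gene on a log axis with its own range, with 1 point per mouse numbered by replicate (control in blue, tumor in red) and a line at the group mean. Every tumor mouse lies below every control mouse in all 5 panels, and Actc1 shows the widest spread among controls (40.4 to 275 CPM).

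Acta1 is the main building block of the thin filament. Its level was 24127, 24354, 29218 and 22434 CPM in control libraries 1 to 4 and 17255, 10688, 9509 and 5088 CPM in tumor libraries 1 to 4. Controls stayed within 1.30-fold of each other, while tumor mice spanned 3.39-fold, with tumor library 1 nearest the controls and tumor library 4 lowest. The difference in mean log2 CPM was -1.36 ± 0.37 (SE, n = 4 each). By count, Acta1 ranked between 4 and 7 among all genes in controls and between 7 and 20 in tumor mice. It made up 2.42% ± 0.32 of all counts in controls and 1.07% ± 0.44 in tumor mice.

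Acta1 was also lower against Myh4 and Ckm in the same library, a comparison that does not depend on the scaling between libraries. The log2 ratio of Acta1 to Myh4, which encodes the myosin of type IIB fibres, was -1.16 ± 0.29 in controls and -2.72 ± 0.34 in tumor mice (mean ± SD, n = 4). The log2 ratio of Acta1 to Ckm, the muscle creatine kinase gene, was 0.28 ± 0.20 in controls and -0.47 ± 0.24 in tumor mice. Neither ratio overlapped between the groups. Ratios of Acta1 to other fibre markers were not tested. Of 13 skeletal muscle fibre markers, 1 was called higher and 1 lower (15.4% called, where 19.8% of all genes were). Their median log2 fold change was -0.20. The marker called lower was Casq1, for the calcium store of the fibre, from 2401 ± 598 to 849 ± 371 CPM (log2 fold change -1.50). The marker called higher was Des, from 3859 ± 285 to 7207 ± 1729 CPM. Among markers not called, the edgeR log2 fold change was -2.54 for Myh2, -2.40 for Mb and -1.12 for Pvalb. The groups overlapped for each of them (adjusted p = 0.235, 0.129 and 0.0857). The difference for Acta1 was -1.36 in mean log2 CPM. Ryr1 (0.51), Ttn (0.41) and Atp2a1 (0.24) took the other sign and were not called either. The enolase gene Eno3 went from 3311 ± 661 to 1280 ± 728 CPM (log2 fold change -1.37). Eno3 was picked because its profile over these libraries lay nearest to that of Acta1, so its like fall follows from that choice. For Myh4 itself the log2 fold change was 0.23 ± 0.37 (SE, adjusted p = 0.693, edgeR quasi-likelihood test with Benjamini-Hochberg adjustment).

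Actc1, the cardiac form, was the most variable actin in both groups. It lay at 87.3, 129, 275 and 40.4 CPM in control libraries 1 to 4 and at 23.7, 4.67, 6.20 and 5.34 CPM in tumor libraries 1 to 4. The lowest control was 1.71 times the highest tumor value, and tumor library 1 stood apart from the other tumor libraries. The difference in mean log2 CPM was -3.76 ± 0.79 (SE, n = 4 each), with a coefficient of variation of 76.3% in controls and 91.9% in tumor mice. Its rank by count went from 343 to 2787 among controls and from 4120 to 8602 among tumor mice. In tumor library 2 the level rested on 144 counts, and in control library 3 on 9491.

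Relative to Acta1 in the same library, Actc1 supplied 3.60, 5.25, 9.31 and 1.80 of every 1000 sarcomeric actin counts in control libraries 1 to 4. It supplied 1.37, 0.44, 0.65 and 1.05 in tumor libraries 1 to 4. The log2 ratio of Actc1 to Acta1 was -7.88 ± 1.00 in controls and -10.29 ± 0.73 in tumor mice (mean ± SD, n = 4), without overlap. The loss of Actc1 was thus larger than that of Acta1 by 2.41 on the log2 scale.

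The level of Actc1 ran in the same order as the fibre composition within each group. Myh4 made up 88.5%, 95.1%, 98.0% and 64.6% of adult myosin heavy chain counts (Myh1, Myh2, Myh4 and Myh7) in control libraries 1 to 4 and 98.9%, 80.3%, 98.5% and 95.2% in tumor libraries 1 to 4. Control libraries 3, 2, 1 and 4, from the highest Myh4 share to the lowest, were also in this order for Actc1, and so were tumor libraries 1, 3, 4 and 2. Acta2 ran the other way. Its order in controls was the exact reverse, and in tumor mice only libraries 1 and 3, with nearly equal Myh4 shares, changed places. These orders were noticed after the values were seen, over 4 mice a group. The log2 ratio of Myh4 to the other 3 heavy chains was added as a covariate after they were seen, so its standard errors understate the uncertainty. With it the difference was -4.37 ± 0.48 for Actc1 (20.7-fold) and -0.95 ± 0.09 for Acta2 (1.93-fold). Without control library 4 and tumor library 2, whose Myh4 shares were the lowest of their groups, the differences were -3.99 and -1.18.

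**Figure D3:**
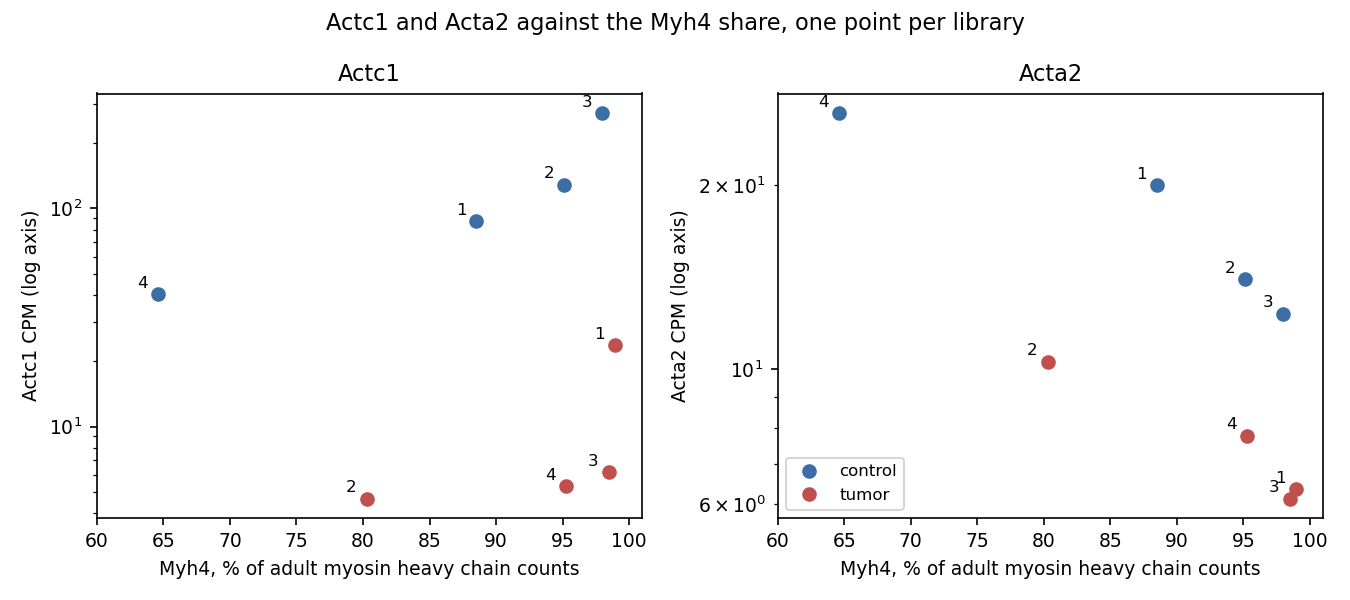
CPM of Actc1 (left) and Acta2 (right) on a log axis against the share of Myh4 in adult myosin heavy chain counts, with 1 point per library numbered by replicate (control in blue, tumor in red). Within each group Actc1 is higher and Acta2 lower where the Myh4 share is higher, except that tumor libraries 1 and 3 change places for Acta2. Tumor library 3 (98.5%) lies below control library 3 (98.0%) in both panels, a pair picked after the values were seen. Tumor library 2 (80.3%) has no control of like share, with control libraries 4 (64.6%) and 1 (88.5%) on either side. The part of fibre composition in the differences was not tested.

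Acta2, the vascular smooth muscle form, had the lowest mean of the 5 in both groups, though Actc1 lay below it in tumor libraries 2 and 4. It lay at 20.0, 14.0, 12.3 and 26.3 CPM in control libraries 1 to 4 and at 6.35, 10.3, 6.14 and 7.78 CPM in tumor libraries 1 to 4. The groups came close, with the lowest control at 1.20 times the highest tumor value. The difference in mean log2 CPM was -1.22 ± 0.30 (SE, n = 4 each). Whether there were fewer smooth muscle cells or less RNA in each cannot be told apart in whole muscle. Against the mean of 17 tested smooth muscle and pericyte markers, Acta2 lay at 0.07 ± 0.22 on the log2 scale in controls and at -0.50 ± 0.23 in tumor mice (mean ± SD, n = 4), without overlap. Against Myh11, the smooth muscle myosin heavy chain, its log2 ratio was -0.05 ± 0.26 and -0.55 ± 0.46, and the groups overlapped.

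Actb and Actg1, the cytoplasmic actins, were lower by unequal amounts. Actb lay at 253, 235, 303 and 218 CPM in control libraries 1 to 4 and at 174, 135, 193 and 193 CPM in tumor libraries 1 to 4, a difference of -0.55 ± 0.16 in mean log2 CPM (SE, n = 4 each). It had the smallest gap, with the lowest control at 1.13 times the highest tumor value. Actg1 lay at 141, 125, 156 and 120 CPM in control libraries 1 to 4 and at 62.4, 55.5, 63.9 and 64.7 CPM in tumor libraries 1 to 4, a difference of -1.13 ± 0.10. It was the most uniform actin among tumor mice, with a coefficient of variation of 6.77%, and its lowest control was 1.85 times its highest tumor value. In the same library there were 1.86 ± 0.07 Actb counts for each Actg1 count in controls and 2.80 ± 0.27 in tumor mice (mean ± SD, n = 4), without overlap.

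Within the summed counts of the 5 genes, the loss of Actc1 was the one change of share without overlap. Its share was 0.354%, 0.517%, 0.917% and 0.177% in control libraries 1 to 4 and 0.135%, 0.043%, 0.063% and 0.100% in tumor libraries 1 to 4. The Wilson interval (95%) ran from 0.167% to 0.188% in control library 4 and from 0.126% to 0.146% in tumor library 1, the nearest pair, and covers counting error only. The difference of -0.406 percentage points was -0.264 without control library 3. The group means were 0.491% ± 0.316 and 0.085% ± 0.041 (mean ± SD, n = 4). Acta1 held 97.9% ± 0.30 of the sum in controls and 97.2% ± 1.59 in tumor mice, where it ran from 98.5% in tumor library 1 to 94.9% in tumor library 4. Actb held 0.986% ± 0.041 in controls and 1.95% ± 1.18 in tumor mice, with 3.60% in tumor library 4. Actg1 held 0.530% ± 0.030 and 0.682% ± 0.371, and Acta2 0.074% ± 0.032 and 0.085% ± 0.047. The differences in the shares of Acta1 (-0.72 percentage points), Acta2 (0.011) and Actg1 (0.152) took the other sign without tumor library 4 (0.030, -0.009 and -0.023), and that of Actb went from 0.964 to 0.414. Per transcript length, Actc1 was again the gene whose shares did not overlap, at 0.484% ± 0.311 and 0.084% ± 0.040.

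**Figure D4:**
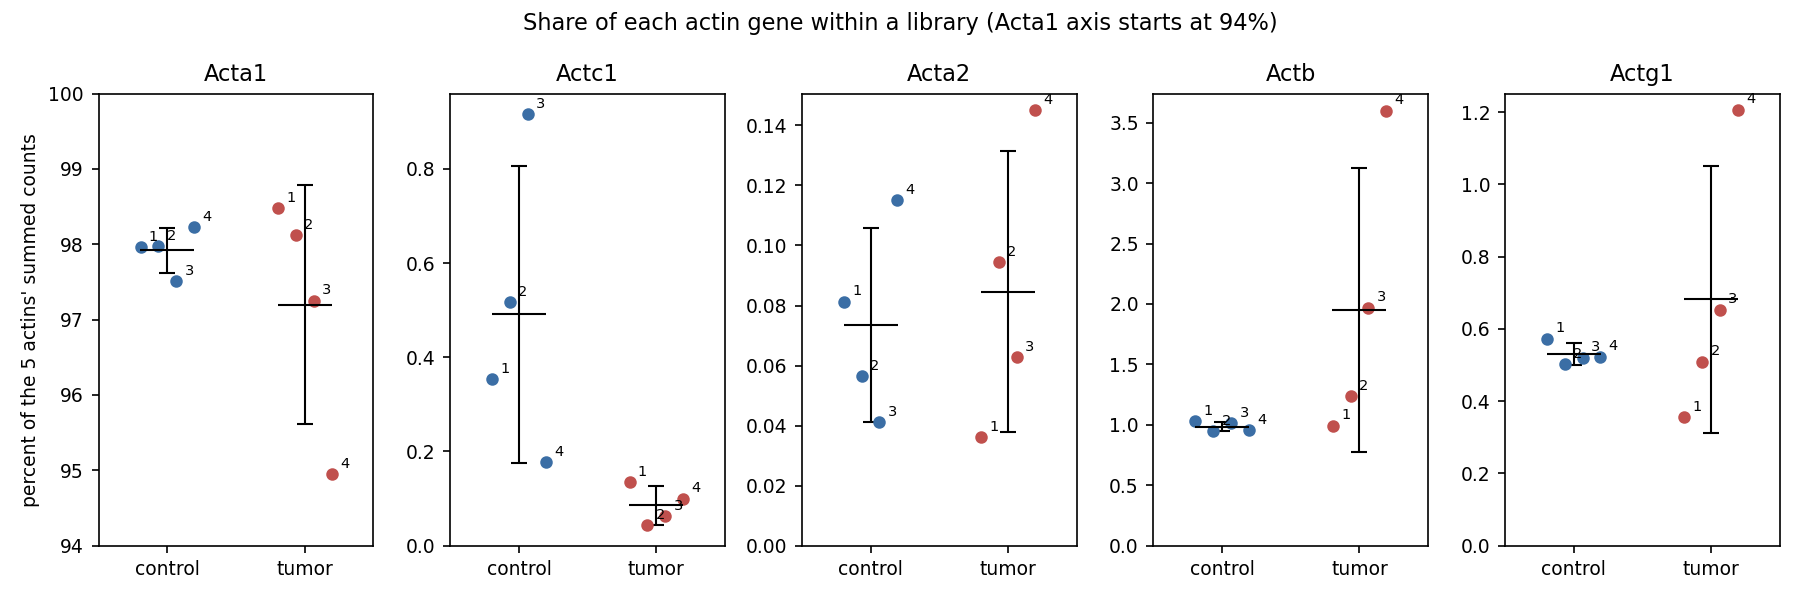
Percent of the summed counts of the 5 actin genes taken by each, with 1 point per library numbered by replicate, a line at the group mean and bars of 1 SD (n = 4). The groups separate for Actc1, and tumor library 4 has the lowest share of Acta1 (94.9%) and the highest of Actb (3.60%).

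The rest of the family was barely present. Actg2, the enteric smooth muscle actin, had 12 counts in all 8 libraries, Actbl2 had 1 and the pseudogene Actb-ps1 had 4. The pseudogene Actg-ps1 had 2 to 25 counts a library. Coding sequences of actin genes are near-identical, so the authors' estimated counts can share reads among them. Acta1, Actb and Actg1 had a fractional count in 8 of 8 libraries, Actc1 and Acta2 in 1. How many reads were moved between these genes was not tested.

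The genes whose profiles over the 8 libraries lay nearest to each actin were found by the root mean square difference of log2 CPM, each profile centred on its own mean, among 10262 other genes. For Actc1 they were Amd1 (0.59), Smox (0.65), Mettl21c (0.70), Kcng4 (0.78) and Lrrc38 (0.79). Amd1 and Smox encode enzymes of polyamine synthesis and breakdown, Mettl21c a lysine methyltransferase of muscle and Kcng4 a potassium channel subunit. All of these 5 were lower in tumor mice, by 2.71 to 4.29 on the log2 scale. That follows largely from how they were picked, since the profile of Actc1 holds the difference between the groups. Amd1 shares reads with a pseudogene copy, so its value is less certain. For Acta1 the nearest were the muscle enolase gene Eno3 (0.17), Eml1 (0.18) and Fam131a (0.22). For Acta2 they were Tcf15 (0.10), a transcription factor of endothelial cells and early mesoderm, and the mitochondrial or metabolic genes Mdh1 (0.13) and Atp5g3 (0.13). For Actb they were Unc119b (0.07), Tnrc18 (0.08) and Zhx2 (0.10), and for Actg1 Scarf1 (0.12), Fkbp14 (0.16) and Wnt9a (0.16). Among the actins themselves, Actb and Actg1 were the closest pair (0.31) and Actc1 and Actb the farthest (1.83).

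Genes that work with actin were taken from lists chosen with earlier results of these data known, and tested across all genes (edgeR, adjusted p under 0.05). Of all 14070 genes tested, 19.8% changed, 11.0% higher and 8.73% lower, and the median log2 fold change was 0.00. Of the changed genes 55.8% were higher, against 43.0% with upper-quartile scaling and 69.7% with library totals. Of 36 partners of the sarcomeric thin filament, 4 rose and 4 fell (22.2% called), with a median of -0.17. The split of rises and falls moved with the setting, to 4 and 9 with upper-quartile scaling and to 5 and 1 without control library 4. Mypn, which tethers the filament at the Z-disc, rose 1.93-fold from 411 ± 26.8 to 794 ± 80.6 CPM (SD, n = 4; adjusted p = 0.00358). Cap2, which recycles actin monomers, rose from 334 ± 23.0 to 613 ± 127 CPM (adjusted p = 0.00854), and the Z-disc gene Pdlim3 rose from 460 ± 122 to 1289 ± 573 CPM (adjusted p = 0.0129). With control library 1 left out, Pdlim3 was no longer called (adjusted p = 0.0505). Kbtbd13, a ubiquitin ligase adaptor of the thin filament that is mutated in a nemaline myopathy, fell from 20.4 ± 3.32 to 4.99 ± 1.57 CPM (log2 fold change -2.03 ± 0.23, SE, adjusted p = 0.0024). The other 3 falls were the slow-fibre troponin genes Tnnc1, Tnni1 and Tnnt1. The count of changed partners was 3 without control library 1, where 1110 genes changed in all, and 4 without tumor library 3, where 1190 did. Without control library 2, 1373 genes changed in all.

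Of 18 tested sarcomere genes of the heart, the embryo or slow fibres, 1 rose and 5 fell (33.3% called), with a median log2 fold change of -0.61 (0.02 without control library 4). The 5 that fell were Myl3, Myh7, Tnnc1, Myl2 and Tnni1, which adult slow fibres express. They rested on few libraries. Myl3, a slow myosin light chain gene, lay at 58.8, 5.66, 0.58 and 592 CPM in control libraries 1 to 4 and at 0 to 0.58 CPM in tumor mice, and Myh7 at 119, 16.4, 1.48 and 2164 CPM and at 0.11 to 4.09 CPM. Control library 4, the highest for these genes, was the lowest control for Actc1. Without it the falls were 67.0-fold in place of 509-fold for Myl3 and 21.2-fold in place of 267-fold for Myh7, the fall of Tnnc1 was not called (adjusted p = 0.107), and 1 gene rose and 2 fell. The counts of changed genes were 1 without control library 1, 2 without tumor library 1 or 4, 3 without tumor library 2 and 0 without tumor library 3. Myh7 was no longer called when control library 1 or tumor library 1, 3 or 4 was left out (adjusted p from 0.0547 to 0.0897), nor Myl3 when tumor library 3 was (adjusted p = 0.0648). Tnnc1 stayed called only when control library 2 or 3 was the one left out (adjusted p from 0.0525 to 0.114 for the other 6). Ankrd1, a stress-responsive sarcomere gene, rose 11.4-fold from 5.36 ± 3.90 to 61.0 ± 69.3 CPM (adjusted p = 0.0215). Its rise was 5.09-fold without tumor library 4, and it was no longer called when control library 1, 2 or 3 or tumor library 3 was left out (adjusted p from 0.0501 to 0.0655). The embryonic and neonatal myosin genes Myh3 and Myh8 showed differences of 0.57 and 0.41 on the log2 scale (adjusted p = 0.648 and 0.186).

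Of 27 tested genes that fold or modify actin, 5 rose (18.5%, where 11.0% of all genes rose) and 1 fell, with a median log2 fold change of 0.13. With upper-quartile scaling 2 rose and 2 fell, and without tumor library 4 the median was -0.03. Cct2 and Tcp1, subunits of the chaperonin that folds actin and tubulin, rose from 103 ± 5.77 to 155 ± 16.4 CPM (adjusted p = 0.00998) and from 131 ± 2.59 to 180 ± 14.6 CPM (adjusted p = 0.0185). Pfdn5, of the prefoldin complex that delivers actin to the chaperonin, rose from 73.1 ± 1.77 to 97.5 ± 8.40 CPM (adjusted p = 0.0243). Msrb1, which reduces oxidised methionines of actin, fell from 99.3 ± 10.2 to 50.9 ± 10.3 CPM (log2 fold change -0.96 ± 0.16, adjusted p = 0.0054). Naa80, which acetylates the start of actin, rose 1.54-fold (adjusted p = 0.0455), and for Setd3, which methylates a histidine of actin, the log2 difference was 0.33 ± 0.11 (adjusted p = 0.0645). The count of changed genes was 2 when control library 1, control library 2 or tumor library 3 was left out, and 3 when control library 3 was. Leaving out control library 1, control library 2 or tumor library 3 ended the calls of Tcp1 and Pfdn5 (adjusted p from 0.0622 to 0.0779), and control library 3 also that of Pfdn5 (adjusted p = 0.06). Naa80 was not called when any library other than control library 4 or tumor library 1 was left out (adjusted p from 0.0773 to 0.131), nor with DESeq2 size factors or upper-quartile scaling (adjusted p = 0.0508 and 0.0585). Upper-quartile scaling also ended the call of Pfdn5 (adjusted p = 0.053), and testing without a count filter those of Tcp1 and Pfdn5 (adjusted p = 0.0562 and 0.0693).

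Of 46 genes of cytoplasmic actin assembly, 2 rose and 5 fell (15.2% called, below the 19.8% of all genes), with a median of -0.15. With library totals 3 rose and 1 fell, and the median was -0.02. The formin gene Daam1 fell from 13.6 ± 1.5 to 8.85 ± 0.63 CPM (adjusted p = 0.0108), Vasp, which lengthens filaments, from 25.8 ± 11 to 10.2 ± 3.02 CPM (adjusted p = 0.0284) and the cytoskeletal tropomyosin gene Tpm4 from 22.8 ± 1.24 to 15.0 ± 3.25 CPM (adjusted p = 0.029). Myl12b, a light chain of nonmuscle myosin, fell from 12.4 ± 1.31 to 7.68 ± 1.65 CPM (adjusted p = 0.0219). Its near-identical neighbour Myl12a showed a difference of 1.46 on the log2 scale (adjusted p = 0.159), and reads can be shared between them. With library totals the falls of Daam1, Vasp and Tpm4 were not called (adjusted p = 0.0563, 0.0521 and 0.109). The count of changed genes was 1 without control library 1 or tumor library 3, 2 without control library 2 and 3 without control library 3. Tpm4 was no longer called when any 1 control library or tumor library 3 was left out (adjusted p from 0.0582 to 0.0868), nor Vasp when control library 1, 2 or 3 or tumor library 3 was (adjusted p from 0.0724 to 0.0795), nor Myl12b when control library 1 or 3 or tumor library 3 was (adjusted p from 0.0535 to 0.0764).

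Of 36 tested regulators and targets of SRF and its MRTF coactivators, 2 rose and 8 fell (22.2% lower, where 8.73% of all genes fell), with a median log2 fold change of -0.40. Mrtfa, the coactivator gene, fell 2.92-fold, from 33.4, 33.3, 41.7 and 19.7 CPM in control libraries 1 to 4 to 11.2, 6.69, 6.97 and 19.0 CPM in tumor libraries 1 to 4 (log2 fold change -1.54 ± 0.35, SE, adjusted p = 0.0162). Its lowest control and highest tumor mouse nearly met, and leaving out control library 1 or tumor library 3 raised the adjusted p to 0.0502 or 0.0541. For Srf the log2 difference was -0.40 ± 0.16 (adjusted p = 0.114; 0.0367 with tumor library 1 left out), and for Mrtfb -0.14 ± 0.14 (adjusted p = 0.509). Filip1l, a filamin-binding protein gene, fell from 52.1 ± 4.82 to 27.7 ± 4.64 CPM (adjusted p = 0.00484) and Smtn (smoothelin) from 64.7 ± 2.15 to 32.1 ± 8.87 CPM (adjusted p = 0.00668). The matrix protein gene Ccn1 rose from 18.9 ± 7.86 to 53.5 ± 4.35 CPM (adjusted p = 0.00767), and Elk4, an SRF partner of the ternary complex factor family, from 46.6 ± 6.50 to 108 ± 28.7 CPM (adjusted p = 0.00499). The count of changed genes was 5 without control library 1 or tumor library 3 and 6 without control library 2 or 3.

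Of 17 tested smooth muscle and pericyte markers, 7 fell and 0 rose (41.2% lower, where 8.73% of all genes fell), with a median log2 fold change of -0.67. Besides Smtn, the Notch target gene Heyl fell from 6.05 ± 0.87 to 2.71 ± 0.68 CPM (adjusted p = 0.00869), the pericyte proteoglycan gene Cspg4 from 8.02 ± 1.58 to 4.00 ± 0.91 CPM (adjusted p = 0.0127) and Notch3 from 18.0 ± 5.65 to 9.34 ± 1.70 CPM (adjusted p = 0.0184). Among the markers not called were Myh11 (log2 fold change -0.67, adjusted p = 0.230) and Tagln (-0.07, adjusted p = 0.781). Abcc9 was not called either, and it was higher in tumor mice without overlap (245 ± 18.4 to 320 ± 39.9 CPM, adjusted p = 0.0685). Of 10 endothelial markers 5 fell (3 without control library 1 or tumor library 3), and their summed level was 189 to 275 CPM in controls and 102 to 164 CPM in tumor mice. Of 9 fibro-adipogenic markers 2 fell (0 without control library 1, 2 or 3 or tumor library 3, and 1 without tumor library 4), with sums of 541 to 768 and 213 to 493 CPM. The 2 that fell were the collagen genes Col1a2 and Col3a1, and the median log2 fold change of the list was -0.63. Dcn, its most abundant tested marker by the naming rule, and Pdgfra showed log2 fold changes of 0.04 and 0.13 (adjusted p = 0.880 and 0.615). The part of these cell types in the level of Acta2 was not tested. The count of smooth muscle and pericyte genes that fell was 2, 4 and 3 when control library 1, control library 2 or tumor library 3 was left out, in that order. Without the first Cspg4 was not called (adjusted p = 0.0505), and Notch3 was not called without the first or the last (adjusted p = 0.0522 and 0.0648).

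**Figure D5:**
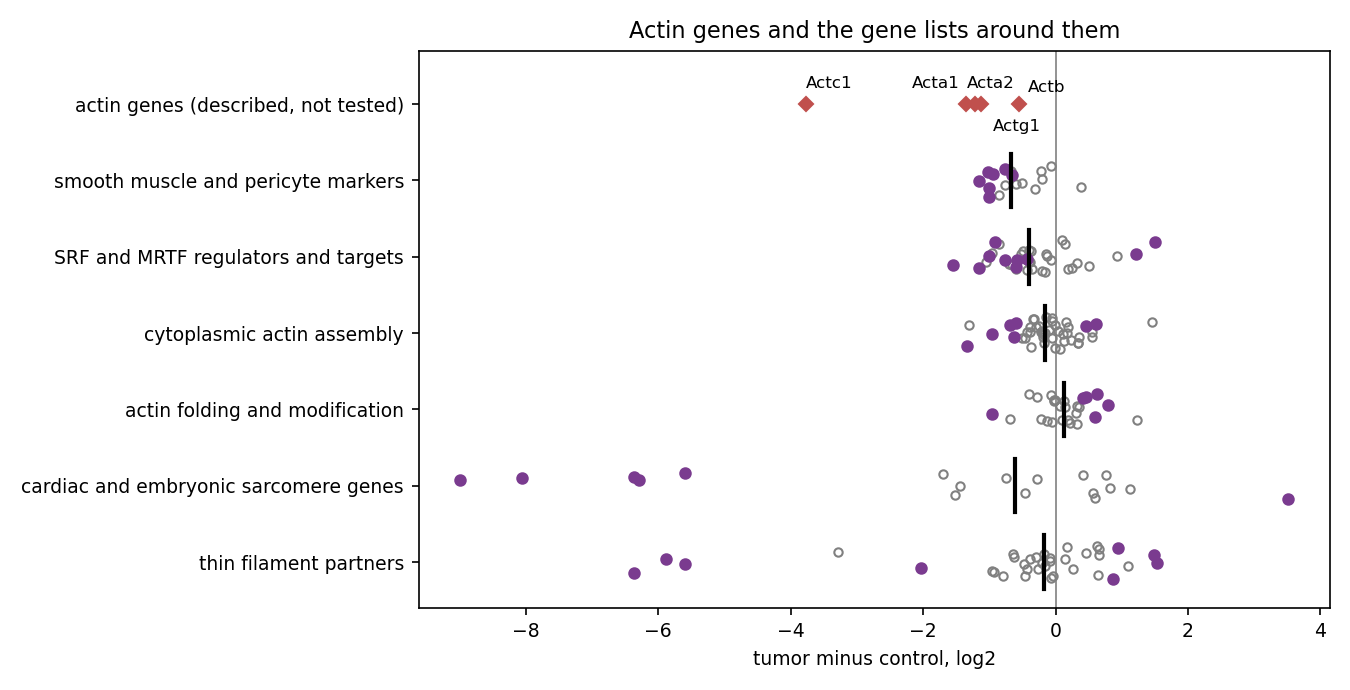
Tumor minus control on the log2 scale for the 5 actin genes (red diamonds, difference in mean log2 CPM, not tested) and for the tested genes of 6 lists (edgeR log2 fold change), with filled points past an adjusted p of 0.05 and a black bar at each list's median. Points are spread vertically for visibility only, and the medians run from -0.67 for smooth muscle and pericyte markers to 0.13 for actin folding and modification.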

How the data were processed

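Messenger RNA of quadriceps was sequenced from 8 mice, 4 control and 4 tumor, grouped by sample title; columns were matched by library name. Estimated counts, deposited as 1 table, covered 53819 symbols, and 9.00% of values were not whole. The build was GRCm39 and the tools, with no role given, R 4.2.2, Salmon 1.10.1, STAR 2.7.9a, Trim Galore 0.6.7 and cutadapt 3.4, per the submitters' processing notes. No annotation was named. Counts were rounded. Genes passing the edgeR function filterByExpr (minimum count 10; 14070 genes, 99.92% of counts) were scaled by TMM and tested, two-sided, with edgeR's quasi-likelihood method (version 4.0.16 under R 4.3.3), in a model of group alone, with Benjamini-Hochberg adjustment over all of them at 0.05. CPM are TMM-scaled, from 28436205 to 36139462 counts a library.

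Differences for the 5 actins are between group means of log2 CPM, with a standard error from the group SDs. Transcript lengths came from GENCODE M21 and promoter windows from RefSeq, both of build GRCm38, matched by symbol; no coordinate was converted. The members, the 13 gene lists and the tests were chosen with earlier results of these data known. Genes were named by rule: the actins; for each of the 6 actin-related lists the 4 changed genes of smallest p; Actg2, Srf, Mrtfa, Mrtfb, Setd3 and Naa80; the most abundant gene of each marker list (not all are printed); and the genes nearest to each actin (5 for Actc1, 3 otherwise) at an average log2 CPM of at least 1, clone and predicted names left out. Other genes named were chosen after their values were seen. Actmap could not be matched by symbol.

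The test was tried on simulated negative binomial counts in the same design, with known changes in 200 of 14070 genes. It called 37% of 2-fold changes and 82% of 4-fold changes, and 7 of its 126 calls were genes left unchanged. A gene not called can therefore still have changed. Far more genes were called in the data (2781) than were changed in the simulation, so these rates need not hold there. Alternatives covered scaling, the count filter, DESeq2 1.42.0, each library left out, a replicate block and, added after seeing the data, a fibre covariate.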

Additional observations from a re-analysis of the deposited data

Results flagged for a closer look

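Among 20 groups of 4 values (CPM and share of each actin gene in each group), 1 held a library far from the rest: Actc1 lay at 23.7 CPM in tumor library 1 and between 4.67 and 6.20 CPM in the other tumor libraries. The gap was 0.920 of the group's range, above Dixon's critical value for 4 values, and chance alone marks about 1 in 20 such groups.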

How the results depend on the processing

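All 5 actin genes stayed lower in tumor mice under 4 other scalings, each library left out, the ratio of mean CPM and the fibre covariate. The genes were chosen on this contrast and their groups did not overlap. Leaving a library out or taking the ratio of means could therefore hardly change a sign, and only the sizes are of use. Differences over the libraries left out ran from -1.63 to -1.06 for Acta1, -4.30 to -3.30 for Actc1, -1.40 to -1.02 for Acta2, -0.61 to -0.45 for Actb and -1.19 to -1.06 for Actg1. With library totals the median of all genes moved by 0.11 on the log2 scale, the actin differences were -1.25, -3.66, -1.11, -0.44 and -1.02 in that order, and 69.7% of called genes were higher (1813 higher, 788 lower), against 55.8% with TMM and 43.0% with the upper quartile (1169 higher, 1547 lower). Share differences over the libraries left out ran from -1.15 to 0.030 percentage points for Acta1, -0.0090 to 0.027 for Acta2 and -0.023 to 0.260 for Actg1, changing sign without tumor library 4, and from -0.511 to -0.264 for Actc1 and 0.414 to 1.28 for Actb.

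The count of changed genes (2781) ran from 1110 to 2845 over the libraries left out. List counts did so from 3 to 10 for thin filament partners, 0 to 5 for cardiac and embryonic genes, 2 to 7 for actin folding, 1 to 8 for cytoplasmic assembly, 5 to 10 for SRF and MRTF and 2 to 10 for smooth muscle and pericyte genes. Thin filament partners numbered 13 with the upper quartile and with DESeq2, cardiac and embryonic genes 2 with the strict filter and 3 without control library 4 and tumor library 2, cytoplasmic assembly genes 4 and SRF and MRTF genes 6 with library totals. Without both control library 4 and tumor library 2, 2922 genes changed, 11 of them SRF and MRTF genes and 10 smooth muscle and pericyte genes. Why these moved was not tested. Replicate numbers were not said to pair mice, and deviations of same-numbered libraries correlated at 0.03, 0.13, 0.20 and 0.02, so a replicate block has no stated basis. With that block 1932 genes changed, 5 thin filament partners, 1 cardiac or embryonic gene and 4 cytoplasmic assembly genes among them. The actin differences under it (-1.36, -3.76, -1.22, -0.55 and -1.13 for Acta1, Actc1, Acta2, Actb and Actg1) equal the main ones by arithmetic. A mean over pairs is the difference of group means when groups are of equal size, so it is no separate check.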
